A study of Mus musculus with 13 samples.

Results

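The genes of the meiotic chromosome axis and of meiotic recombination were followed across whole testis and sorted round spermatids of mice that differ at Wfdc15a, a gene of the WAP four-disulfide core family. The list held 38 genes, chosen by name for their roles in meiosis, and all 38 were found among the 30479 genes of the deposited table. There were 6 whole testis libraries (2 from wild type mice, WT; 1 from a heterozygote, Het; 3 from knockouts, KO) and 7 of round spermatids, with 2 WT, 2 Het and 3 KO. All mice were at postnatal day 25 (P25), and the stated aim was the function of Wfdc15a in spermatogenesis. The labels give neither strain, the Wfdc15a allele nor separate animals, so the p-values reflect the scatter among these libraries, and that scatter may be technical. Each testis library began with about 2 ng of RNA and each round spermatid library with 100 to 200 cells, sorted after staining with the DNA dye Vybrant DyeCycle Green, and both were made by Smart-seq2, which copies polyadenylated RNA along its length and does not keep the strand.

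In meiotic prophase each pair of sister chromatids is folded along a protein axis of cohesins and HORMA-domain proteins. The synaptonemal complex then zips the axes of homologous chromosomes together, while programmed DNA breaks made by SPO11 are repaired with the homolog as template, and some repairs become crossovers. These steps take place in spermatocytes, whose descendants after both meiotic divisions are the haploid round spermatids, and many of the genes are used as markers of spermatocytes. RNA of some of them outlasts the divisions or is still made in spermatids.

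The 250 bases before the start sites of the 38 genes were read from RefSeq (GRCm38.p6), which gave a window for 33 of them. Letters were searched on both strands. The E-box CACGTG, letters that MYC-family and USF-family factors can read, was in 8 of the 33 genes (24.2%) and in 6.9% of 27025 genes. The E2F core GCGGGAA was in 9 of 33 (27.3%) and in 4.4% of all, and either of them in 13 of 33 (39.4%) and in 10.8% of all. The MYB letters CAACTG were in 3 of 33 (9.1%, against 12.6% of all) and the CRE TGACGTCA in 0 of 33 (against 1.8% of all). These matches are a description of the letters and no evidence of binding. The 4 windows shown are each 120 bases upstream of a start site and read 5′ to 3′ on the gene's strand, with matched letters in capitals. Hormad1 (chr3:95559557-95559676, plus strand) and Sycp1 (chr3:102936101-102936220, minus strand) carry E-boxes, and the first also an E2F core; they head the axis and synaptonemal complex genes below. Prdm9 (chr17:15564355-15564474, minus strand; the capitals read the core on the other strand) and Rnf212 (chr5:108775028-108775147, minus strand) carry an E2F core, and their levels lay in opposite directions between libraries.
Hormad1: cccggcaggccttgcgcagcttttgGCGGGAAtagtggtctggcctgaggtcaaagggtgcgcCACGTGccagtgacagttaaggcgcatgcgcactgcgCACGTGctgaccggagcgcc
Sycp1: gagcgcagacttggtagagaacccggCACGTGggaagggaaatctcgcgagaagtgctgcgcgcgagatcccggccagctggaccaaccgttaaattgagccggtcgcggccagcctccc
Prdm9: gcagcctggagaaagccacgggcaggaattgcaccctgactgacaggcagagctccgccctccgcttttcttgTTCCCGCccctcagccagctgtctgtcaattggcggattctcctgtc
Rnf212: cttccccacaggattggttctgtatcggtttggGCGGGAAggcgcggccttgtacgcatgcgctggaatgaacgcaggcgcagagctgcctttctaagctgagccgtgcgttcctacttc

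Libraries of both cell types fell into sets that cut across genotype. Principal components were taken without the members and the further recombination genes given below. In testis the leading component, 71.5% of the variance, placed both WT libraries and KO replicate 1 on one side. The Het library and KO replicates 2 and 3 lay on the other. The same split held in round spermatids, with 55.5% of the variance there. Testis libraries held 7375270 to 18438704 reads and sorted libraries 10825690 to 20927428, and KO replicate 1 was the shallowest testis library. In testis the 8 Sertoli cell markers summed to 11.5 to 24.8 reads-per-million (RPM) in the WT libraries and KO replicate 1, with Amh at 0 in all 3, and to 1346 to 1417 RPM in the Het library and KO replicates 2 and 3. The 6 Leydig cell markers summed to 40.1 to 111 RPM against 538 to 769 RPM. The 7 spermatogonial markers summed to 15.3 to 46.8 RPM against 182 to 249 RPM. In KO replicate 1 Gfra1 gave 45.7 of the 46.8 RPM, above its level in every other testis library. The 10 round spermatid markers summed to 1584 to 4169 RPM against 588 to 743 RPM, but did not move alike. Tnp1, Tnp2, Prm1 and Prm2 were higher in each of the WT libraries and KO replicate 1 than in the rest. Spaca1 was lower there (36.4 to 90.3 RPM against 147 to 184 RPM). Acrv1, Acr and Catsper3 were lowest in WT and highest in KO replicate 1, and Tssk6 and Spata18 overlapped. The 6 stromal markers summed in testis to 12.3 to 207 RPM against 739 to 1219 RPM, with KO replicate 1 at 207 RPM, far above WT. In sorted cells the Sertoli markers summed to 2.48 to 7.45 RPM against 57.1 to 145 RPM. The stromal markers summed to 2.103 to 5.14 RPM against 477 to 1059 RPM in sorted cells. The round spermatid markers summed to 1711 to 1871 RPM against 1141 to 1540 RPM there, with none at 0 in any sorted library. Wfdc15a itself was at 212 and 207 RPM in WT testis, 48.4 in Het and 116, 36.8 and 44.3 in KO; sorted cells had 267 and 234 RPM for WT, 65.0 and 71.5 for Het and 97.9, 67.4 and 48.1 for KO. Reads of the targeted gene were thus present in every KO library, and the Het levels lay within the KO range. The part of cell makeup, depth and library set in the results below was not tested apart from the within-set values given.

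The 38 genes together took more of the reads in the Het libraries and KO replicates 2 and 3 than in the others. In testis they summed to 3206 and 3586 RPM in WT, 6750 in Het and 3200, 6936 and 6656 in KO, by replicate. In round spermatids the sums were 4272 and 4242 RPM in WT, 5616 and 5901 in Het and 4591, 5865 and 5925 RPM in KO. Thus KO replicate 1 lay beside WT in both cell types. In testis 28 of the 38 genes were higher in each of the Het library and KO replicates 2 and 3 than in all of the other 3 (50.2% of all genes tested were), and 2 were lower, Syce3 and Rnf212 (11.7% of all genes were lower). In round spermatids 18 were higher (25.6% of all genes) and 3 lower, Syce2, Syce3 and Psmc3ip (13.5% of all genes). In these bulk samples, fewer spermatocytes and less RNA per spermatocyte cannot be told apart.

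**Figure D1:**
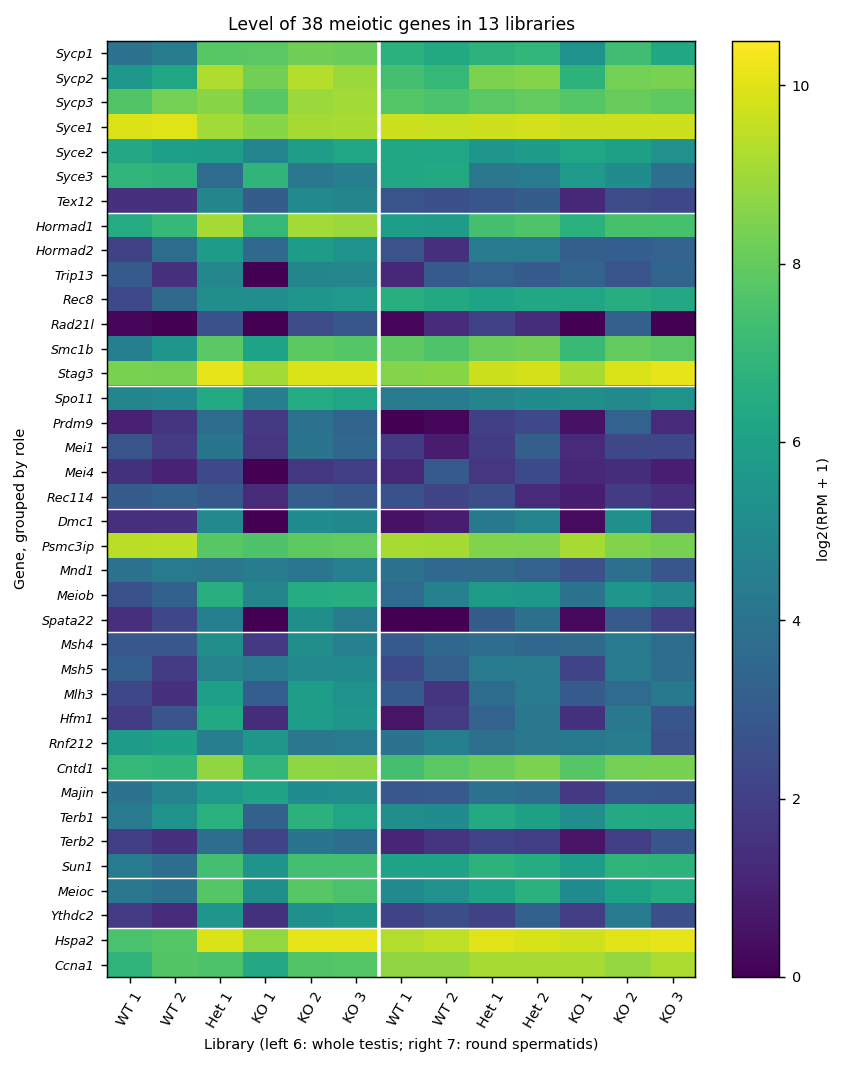
Level of each of the 38 genes (rows, grouped by role) in each of the 13 libraries (columns; whole testis left of the white line, round spermatids right of it), as log2(RPM + 1). In testis the columns of the WT libraries and KO replicate 1 are darker for most rows than those of the Het library and KO replicates 2 and 3, while Syce1, Psmc3ip, Hspa2 and Stag3 are bright in every column.

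Among synaptonemal complex genes, Sycp1 encodes the transverse filament that spans the gap between axes. Sycp1 lies on chromosome 3 of mm10 from 102818499 to 102936100, on the minus strand, with 33 exonic blocks in the annotation. It was at 14.9 and 20.0 RPM in WT testis, 221 in Het and 222, 299 and 284 RPM in KO. All KO libraries, replicate 1 included, lay far above both WT libraries and beside Het. In round spermatids Sycp1 was at 102 and 83.0 RPM in the WT cells, 109 and 122 in the Het cells and 41.1, 155 and 76.9 in the KO cells, so the genotypes overlapped. Sycp2, a component of the axial and lateral elements, was at 47.7 and 73.0 RPM in WT testis, 616 in Het and 303, 641 and 485 RPM in KO. Sycp3, its partner in the lateral element, varied less, from 198 to 520 RPM in testis and from 185 to 266 RPM in round spermatids. Its annotated exons share 660 bases with Chpt1 on the other strand, which reached 553 RPM, and reads of the pair cannot be told apart there.

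The central element genes did not follow one pattern. Syce1 was at 982 and 1004 RPM in WT testis, 531 in Het and 399, 540 and 573 RPM in KO, so WT lay above all others. In round spermatids it kept to 774 to 879 RPM in all 7 libraries. Syce3 was at 120 and 110 RPM in WT testis, 11.9 in Het and 116, 16.9 and 21.4 RPM in KO, which placed KO replicate 1 with WT. In round spermatids Syce3 was at 77.1 and 82.5 RPM in the WT cells, 16.7 and 18.7 in the Het cells and 48.5, 33.0 and 13.1 in the KO cells, all KO libraries lying below WT. Syce2 ran from 25.6 to 78.7 RPM in testis and from 38.3 to 75.7 RPM in round spermatids. Tex12, which joins SYCE2 in the central element, was at 1.84 RPM in both WT testis libraries, 26.8 in Het and 7.59, 31.6 and 26.5 RPM in KO, and at most 7.57 RPM in any round spermatid library.

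**Figure D2:**
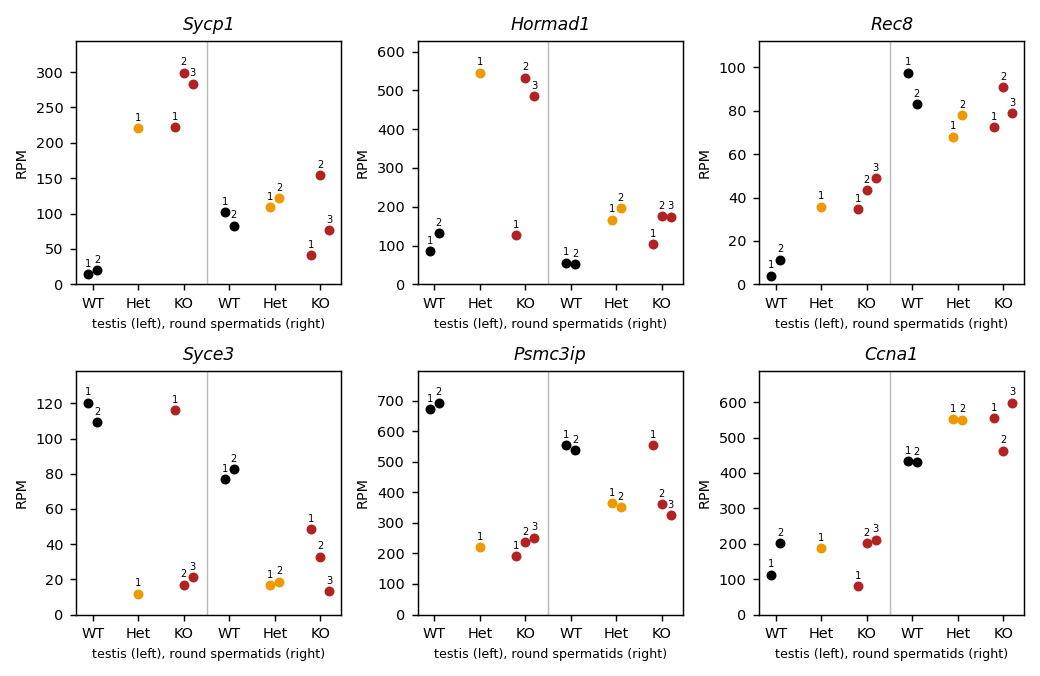
RPM (linear axis from 0) of 6 genes in each library, by genotype, whole testis left of the grey line and round spermatids right of it, with the replicate number above each point. Sycp1 and Rec8 of KO replicate 1 lie with the other KO libraries in testis, whereas Hormad1 and Syce3 of KO replicate 1 lie with WT there.

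Of the axis genes, Hormad1 encodes a HORMA-domain protein of unsynapsed axes. It was at 86.6 and 131 RPM in WT testis, 546 in Het and 127, 533 and 485 RPM in KO. In sorted cells its level was 56.0 and 53.0 RPM in the WT cells, 167 and 196 in the Het cells and 104, 175 and 174 in the KO cells, and there every KO library lay above WT. Hormad2, its relative, was at 3.09 and 12.2 RPM in WT testis and 54.0 RPM in Het, and at no more than 19.3 RPM in round spermatids. Trip13, the ATPase that takes HORMA-domain proteins off the axis, had no read in KO replicate 1 of testis, where 3 reads would be 0.407 RPM, and was at 26.8 to 28.2 RPM in the Het library and KO replicates 2 and 3.

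The cohesin subunits of meiosis differed in how they moved. Rec8 lies on chromosome 14 of mm10 from 55618037 to 55625395, on the plus strand, with 20 exonic blocks in the annotation. Rec8, a meiotic kleisin, was at 4.01 and 11.4 RPM in WT testis, 35.8 in Het and 34.7, 43.4 and 48.9 RPM in KO. In round spermatids Rec8 kept to 68.1 to 97.7 RPM in all 7 libraries, above every testis library. Rad21l, the other meiotic kleisin, was at or below 0.108 RPM in WT testis and KO replicate 1, under the 3-read floor, and at 4.24 to 5.95 RPM in the rest. Smc1b, the meiotic SMC subunit, was at 22.0 and 45.4 RPM in WT testis, 223 in Het and 66.4, 232 and 214 RPM in KO. Stag3, the meiotic stromalin, was at 333 and 322 RPM in WT testis, 1104 in Het and 531, 947 and 947 RPM in KO, with all KO libraries above WT. In round spermatids Stag3 was at 379 and 400 RPM in the WT cells, 839 and 897 in the Het cells and 556, 957 and 1105 in the KO cells.

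Genes of break formation were low in most libraries. Spo11, the enzyme that makes the breaks, was at 27.4 and 31.2 RPM in WT testis, 85.0 in Het and 21.8, 88.0 and 70.2 RPM in KO, with KO replicate 1 below WT. In sorted cells its level was 19.4 and 20.2 RPM in the WT cells, 26.3 and 32.6 in the Het cells and 37.0, 31.6 and 40.5 in the KO cells, and every KO library lay above WT. Prdm9, the histone methyltransferase that marks hotspots, was at 0.976 and 1.96 RPM in WT testis and 12.2 RPM in Het. In WT round spermatids it was at 0 and 0.0981 RPM, under the floor of 3 reads, and it was between 0.430 and 8.90 RPM in KO. Mei1, Mei4 and Rec114, which break formation needs, stayed at or below 16.1, 6.77 and 8.62 RPM in all 13 libraries. Rec114 shares 251 exonic bases with Nptn on the other strand.

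Strand exchange genes included partners that did not vary alike. Psmc3ip (HOP2), which helps the recombinases, was at 672 and 693 RPM in WT testis, 220 in Het and 190, 236 and 252 RPM in KO, so WT stood above all others. Psmc3ip lies on chromosome 11 of mm10 from 101091823 to 101095436, on the minus strand, with 8 exonic blocks in the annotation. Its partner Mnd1 kept to 14.4 to 22.7 RPM in testis. In round spermatids Psmc3ip was at 555 and 539 RPM in the WT cells, 366 and 351 in the Het cells and 555, 362 and 326 in the KO cells, with KO replicate 1 at the WT level. Dmc1, the meiotic recombinase, was at 1.68 and 1.84 RPM in WT testis, 29.7 in Het and 0, 33.3 and 29.1 RPM in KO. In round spermatids Dmc1 was at 0.409 and 0.785 RPM in the WT cells, 18.1 and 25.7 in the Het cells and 0.239, 37.8 and 3.05 in the KO cells, a wide spread within KO. Meiob, a single-stranded DNA binder, was at 5.21 and 8.62 RPM in WT testis, 97.6 in Het and 26.6, 89.8 and 91.8 RPM in KO. Its partner Spata22 had no read in either WT round spermatid library and was at 7.46 and 13.6 RPM in the Het cells and 0.191, 6.56 and 2.98 RPM in KO, with KO replicate 1 near the WT libraries. Spata22 shares 1025 exonic bases with Gm49340 on the same strand, and Psmc3ip 385 with Mlx on the other.

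Crossover genes rest on MSH4 and MSH5, which stabilise recombination intermediates, and on MLH3, which helps resolve them. Msh4 was at 6.13 and 6.27 RPM in WT testis, 35.8 in Het and 2.31, 35.9 and 23.8 RPM in KO. Msh5 was at 7.76 and 2.60 RPM in WT testis, 24.8 in Het and 19.4, 30.1 and 30.3 RPM in KO, all KO libraries above WT. Mlh3 was at 3.85 and 1.84 RPM in WT testis, 60.2 in Het and 7.73, 55.8 and 41.4 RPM in KO. Hfm1, a helicase needed for crossovers, was at 2.66 and 5.76 RPM in WT testis, 82.2 in Het and 1.63, 56.3 and 44.1 RPM in KO. Rnf212, a RING-finger protein of crossover designation, went against the rest of the class. It was at 55.6 and 63.5 RPM in WT testis, 21.5 in Het and 45.8, 17.1 and 18.9 RPM in KO. Cntd1, a cyclin-like crossover factor, kept to 119 to 126 RPM in WT testis and KO replicate 1 and to 409 to 433 RPM in the rest, but its annotated exons share 1394 bases with Becn1 on the other strand, which reached 322 RPM.

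TERB1, TERB2 and MAJIN tie telomeres to the nuclear envelope, and SUN1 spans that envelope. Sun1 was at 18.9 and 13.1 RPM in WT testis, 163 in Het and 42.4, 162 and 162 RPM in KO, all KO libraries above WT. In round spermatids Sun1 was at 67.5 and 65.9 RPM in the WT cells, 111 and 90.2 in the Het cells and 57.1, 113 and 111 in the KO cells. Majin was at 15.1 and 24.9 RPM in WT testis, 48.3 in Het and 65.1, 33.1 and 34.6 RPM in KO, so that KO replicate 1 was the highest. Every round spermatid library was lower for Majin than every testis library, from 2.34 to 14.1 RPM. Terb1 ran from 8.68 to 106 RPM in testis and Terb2 from 1.84 to 15.4 RPM, both lowest in WT or KO replicate 1.

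Meioc and Ythdc2 act together on RNA to keep germ cells in meiotic prophase. Meioc was at 17.2 and 13.7 RPM in WT testis, 214 in Het and 37.0, 215 and 179.9 RPM in KO. Ythdc2 was at 2.49 and 1.52 RPM in WT testis, 44.5 in Het and 1.90, 37.3 and 46.0 RPM in KO, with KO replicate 1 at the WT level. Hspa2, the testis chaperone needed for the first meiotic division, was at 178 and 213 RPM in WT testis, 949.8 in Het and 438, 1100 and 1106 RPM in KO. In round spermatids Hspa2 was at 629 and 719 RPM in the WT cells, 1004 and 931 in the Het cells and 844, 1017 and 1097 in the KO cells. Ccna1, the male germ cell cyclin A1, was at 113 and 203 RPM in WT testis, 189 in Het and 79.6, 202 and 211 RPM in KO, with the genotypes overlapping. In sorted cells it was between 431 and 599 RPM in all 7 libraries.

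Per kilobase of exon, Syce1 was the most abundant member in each of the 6 groups, at a mean of 680 RPM per kilobase in WT testis and 551 in WT round spermatids. Psmc3ip came next in both WT groups, at 529 and 424 RPM per kilobase, and Hspa2 came next in both KO groups, at 333 in testis and 373 in round spermatids. In WT round spermatids Hspa2 and Ccna1 followed at 255 and 236 RPM per kilobase. Mei4 was the lowest in both KO groups, at 0.420 and 0.301 RPM per kilobase, and Rad21l in WT testis at 0.0327, under its floor. Neighbours at the low end are not separable at these depths.

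In testis, KO minus WT was positive for 30 of the 38 genes and negative for 8 (67.9% of all genes were positive), with values on the log2(RPM + 1) scale, which understates changes of low genes. The limma model called 0 of 38 at an adjusted p under 0.05, and 0% of all 18570 genes tested were called (voom on recovered reads also called 0). An unadjusted p under 0.05 was reached by 14 of 38, against 23.6% of all genes. Sycp1 stood at +3.87 (SE 0.35, limma adjusted p = 0.0710) and Sycp2 at +2.93 (SE 0.41, adjusted p = 0.0710), with 3 KO and 2 WT libraries. Other positive values included Meiob (+2.99, SE 0.68), Rec8 (+2.45, SE 0.59), Sun1 (+2.65, SE 0.68), Meioc (+2.80, SE 0.79) and Hspa2 (+2.05, SE 0.46). Negative values included Psmc3ip (-1.60, SE 0.28, limma adjusted p = 0.0710), Syce1 (-0.99, SE 0.27) and Rnf212 (-1.24, SE 0.57).

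By role, the medians of KO minus WT in testis were +0.61 for synaptonemal complex genes (4 of 7 positive), +1.65 for axis and cohesin genes (7 of 7) and +0.80 for break formation (3 of 5). They were +1.40 for strand exchange (4 of 5), +1.54 for crossover genes (5 of 6) and +1.34 for telomere attachment (4 of 4). The RNA regulators Meioc and Ythdc2 had +2.67 (2 of 2), and Hspa2 and Ccna1 had +1.02 (1 of 2). Over all 38 genes the median was +1.49 against +0.63 for all genes. With each library centred on its median, 25 of the 38 were positive and the members' median was +0.54, against -0.31 for all genes. Every KO library lay above both WT libraries for 15 members, against 28.2% of all genes, and below both for 3, Syce1, Psmc3ip and Rnf212, against 14.1%. Of 27 further genes of meiotic recombination measured, 27 were positive (median +1.58), among them Brca1 (+4.27, SE 0.69) and Mdc1 (+3.05, SE 0.44), which mark unsynapsed chromatin, and limma called none. All 12 somatic relatives of the members were positive too, with a larger median of +2.49, among them the cohesin subunit Stag2 (+4.52, SE 0.74) and the RNA reader Ythdc1 (+3.94, SE 0.55), so positive values were not restricted to meiosis-specific genes.

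**Figure D3:**
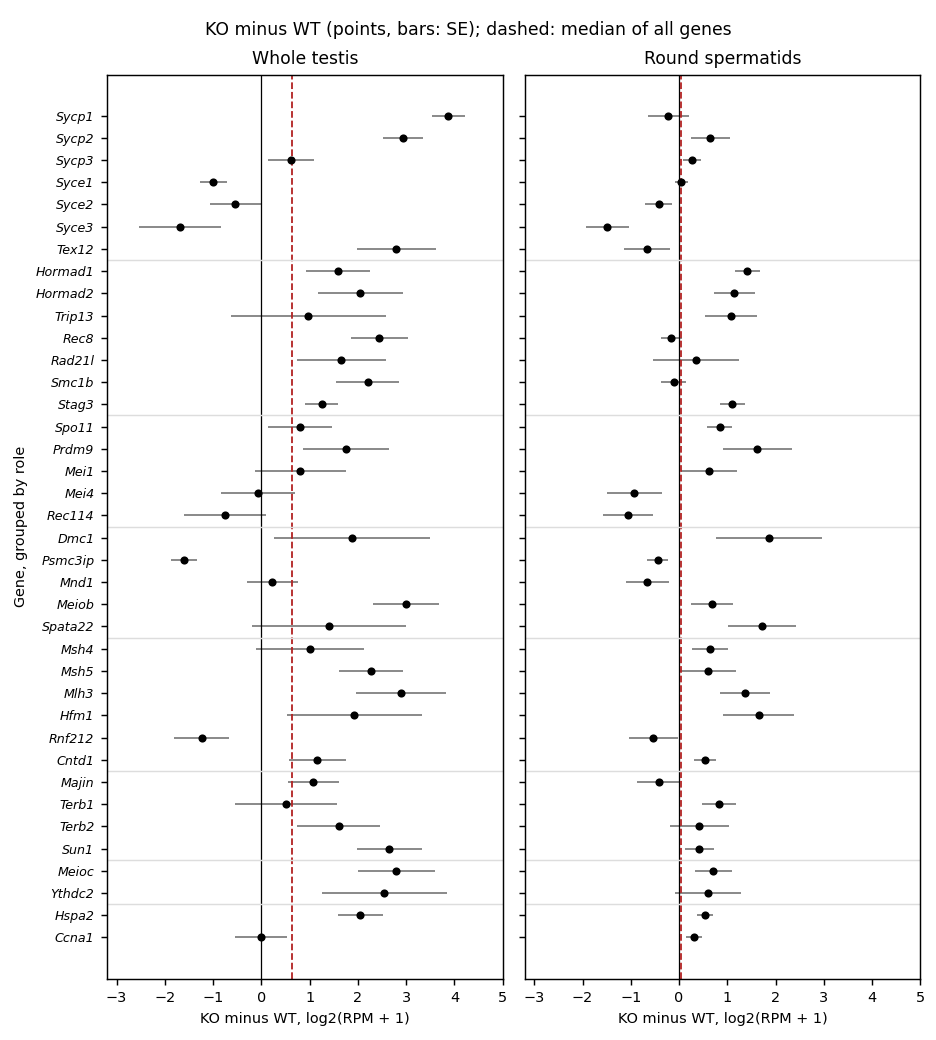
KO minus WT for each of the 38 genes, on the log2(RPM + 1) scale, in whole testis (left) and round spermatids (right), with 3 KO and 2 WT libraries each. Points are limma estimates with SE bars and the dashed line is the median of all genes (+0.63 and +0.03); most points lie right of it, and no gene passed an adjusted p under 0.05.

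The counts of calls turned on KO replicate 1. Without it limma called 32 of 38 members in testis, where 65.2% of all genes were called, and 18 of 38 in round spermatids, where 30.8% were, and WT and KO then lie wholly in different library sets. Inside the sets the members' differences lay on both sides of 0. KO replicate 1 minus WT in testis ran from -2.24 (Trip13) to +3.61 (Sycp1), with a median of 0.00 (all genes -0.14), 19 positive and 19 negative. KO replicates 2 and 3 minus the Het library ran from -0.71 (Hfm1) to +0.64 (Syce3), with a median of -0.04 (all genes -0.03), 16 positive and 22 negative. For Sycp1 these within-set differences were +3.61 and +0.40, for Rec8 +2.18 and +0.36, and for Meiob +1.84 and -0.10. For Psmc3ip they were -1.84 and +0.14, and for Syce3 +0.02 and +0.64. With the library set as a covariate, a fit in which KO minus WT rests on KO replicate 1 alone, 19 of 38 passed in testis (37.7% of all genes) and 0 in round spermatids (0.492% of all genes). That fit assumes that the lone library varies like those of the other groups.

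Against WT and Het libraries together, limma called 0 of 38 members in testis and 0 of 38 in round spermatids, as it called 0% of all genes in each. In testis 29 of 38 were positive (63.2% of all genes) with a median of +0.66 (all genes +0.29), and 1 member reached an unadjusted p under 0.05 (2.57% of all genes), Sycp1 at +2.67 (SE 0.93, limma adjusted p = 0.890). In round spermatids 20 were positive and 18 negative (45.5% of all genes positive), the median was +0.01 (all genes -0.04), and 0 reached an unadjusted p under 0.05 (4.56% of all genes).

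In round spermatids, KO minus WT was positive for 26 of 38 genes and negative for 12 (52% of all genes were positive). Limma called 0 of 38, and 0% of all 18075 genes tested, as did voom. An unadjusted p under 0.05 was reached by 12 of 38, against 21.1% of all genes. Hormad1 stood at +1.41 (SE 0.25, limma adjusted p = 0.121), Stag3 at +1.10 (SE 0.25) and Spo11 at +0.84 (SE 0.26). Syce3 stood at -1.49 (SE 0.44, limma adjusted p = 0.138), and Mlh3 at +1.36 (SE 0.52). The axis and cohesin genes had a median of +1.07 and the synaptonemal complex genes one of -0.22, against +0.54 for the 38 members and +0.03 for all genes. All 3 KO libraries lay above both WT libraries for 11 members, against 16.6% of all genes, and below for 4, Syce2, Syce3, Tex12 and Rec114, against 19.4%. Of the 27 further recombination genes 24 were positive (median +0.42), and of the 12 somatic relatives 11 (median +0.62). Within sets the medians were -0.06 for KO replicate 1 minus WT (all genes -0.12; members from -1.57 to +1.26) and -0.08 for KO replicates 2 and 3 minus Het (all genes -0.03; members from -1.10 to +0.77). Of the members, 17 were positive and 21 negative in the former, and 14 and 24 in the latter. Spo11 was positive in both (+0.87 and +0.28), as was Stag3 (+0.51 and +0.24), while Hormad1 was at +0.91 and -0.05. Majin was negative in both (-1.16 and -0.98), as was Rec114 (-1.57 and -0.30).

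KO minus WT tended to be larger for members with longer exonic sequence. Across the 38 members its correlation with log2 exonic length was r = 0.58 (Spearman rho 0.55) in testis and r = 0.51 (rho 0.49) in round spermatids, a description across genes that share all libraries. Across all genes with a length it was r = 0.37 and r = 0.21. The 19 shorter members, 553 to 2184 bases, had a median of +0.80 in testis with 12 positive, and the 19 longer ones, 2219 to 7215 bases, had +1.93 with 18 positive. In sorted cells the medians were +0.05 and +0.63. Syce3 is the shortest of the 38, and Psmc3ip, Rnf212 and Syce1 also are among the 19 shorter. With each library corrected for exonic length, the members' median stayed at +1.45 in testis and +0.43 in round spermatids, and 0 members were called.

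**Figure D4:**
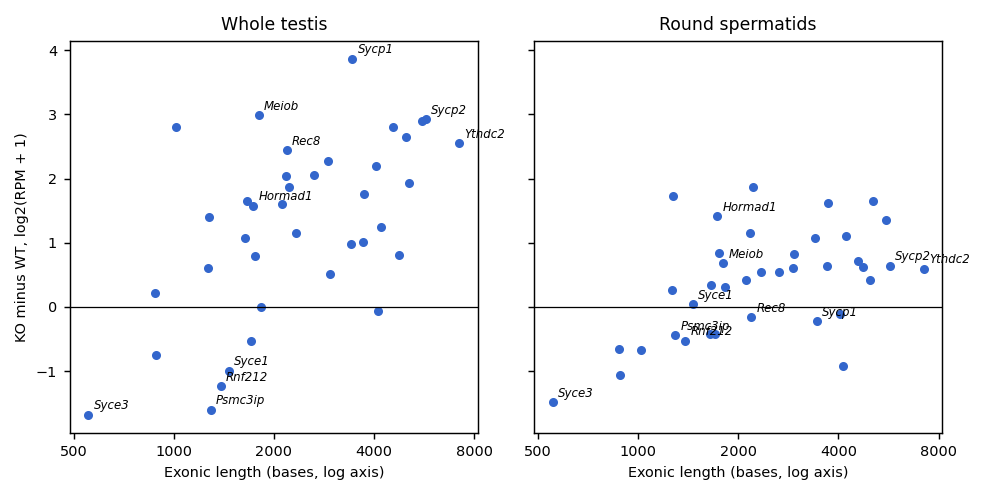
KO minus WT on the log2(RPM + 1) scale (vertical axis) against exonic length in bases (log axis) for the 38 genes, in whole testis (left) and round spermatids (right). Syce3, Psmc3ip, Rnf212 and Syce1, all short, lie below 0 in testis, and Ythdc2, the longest at 7215 bases, lies above 0 in both panels; r is 0.58 and 0.51.

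Round spermatids were then set against testis within each genotype, in a fit of all 13 libraries. In WT, 6 of 38 members passed and all 6 were higher in round spermatids, where 11.5% of all 20085 genes were called, 9.09% higher and 2.39% lower. Rec8 was higher by +3.53 (SE 0.42, limma adjusted p = 7.49e-04), Smc1b by +2.73 (SE 0.56, adjusted p = 0.00993) and Sycp1 by +2.35 (SE 0.48, adjusted p = 0.0101). Hspa2 was higher by +1.78 (SE 0.38, limma adjusted p = 0.0119), Sun1 by +2.02 (SE 0.59, adjusted p = 0.0493) and Ccna1 by +1.51 (SE 0.43, adjusted p = 0.0441). In KO the same difference was +0.92 for Rec8, +0.42 for Smc1b, -1.74 for Sycp1, +0.27 for Hspa2, -0.21 for Sun1 and +1.83 for Ccna1. Het means were lower in round spermatids for Sycp1 (115 against 221 RPM) and Sun1 (100 against 163 RPM). Those of Rec8, Smc1b and Ccna1 were higher there. The Het means of Hspa2 lay close together (967 RPM in round spermatids against 950 RPM in testis). In WT the members' median was +0.19, against +0.20 for all genes. There were 20 positive and 18 negative members (57.9% of all genes positive), and 16 and 22 with centred libraries. Both WT round spermatid libraries lay above both WT testis libraries for 15 members (38.6% of all genes) and below for 14 (23.7%), such as Majin, Rnf212 and Hormad1, none of which passed. Of the 27 further recombination genes 4 passed, Tex15 (+3.33), Prr19 (+1.12) and Tcfl5 (+0.98) higher and Fkbp6 (-2.82) lower. Rec8 passed in all 13 fits that left out 1 library. The count of members called fell without any 1 of the WT libraries, and so did the share of all genes called, from 11.5%. Each of those fits leaves 1 WT library of that cell type. Without 1 KO library the count ran from 4 to 12. It was 4 without KO replicate 2 or 3 of round spermatids, where 9.12% and 9.71% of all genes were called. It was 12 without KO replicate 1 of testis, where 29.8% were. The call held in 10 of the 13 for Smc1b and for Sycp1, in 9 for Hspa2, in 5 for Sun1 and in 4 for Ccna1. With all libraries, no filter and quantile normalization each lost Sun1 (limma adjusted p = 0.0802 and 0.136) and Ccna1 (adjusted p = 0.0734 and 0.0922). Centring lost Ccna1 as well (limma adjusted p = 0.11), and a pseudocount of 0.1 RPM and voom on recovered reads lost Sun1 (adjusted p = 0.0509 and 0.0924).

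In KO, 4 of 38 members passed, against 2.36% of all genes (0.936% higher, 1.42% lower). Majin was lower in round spermatids by -2.95 (SE 0.44, limma adjusted p = 0.0168) and Sycp1 by -1.74 (SE 0.40, adjusted p = 0.0466), while Ccna1 was higher by +1.83 (SE 0.35, adjusted p = 0.0287) and Syce1 by +0.74 (SE 0.17, adjusted p = 0.0451). The median was -0.87 against -0.14 for all genes, with 11 positive and 27 negative (43.5% of all genes positive; 15 and 23 with centred libraries). In Het, with a single testis library, limma called 0 of 38 and 0% of all genes, and 5 members reached an unadjusted p under 0.05 (12.2% of all genes). The Het median was -0.85 against -0.27 for all genes, with 7 positive and 31 negative (40.6% of all genes positive; 17 and 21 with centred libraries). Across the 13 fits that left out 1 library, the KO count ran from 0 (without KO replicate 3 of testis or KO replicate 1 of round spermatids, where 0.0908% and 0.095% of all genes were called) to 27 (without KO replicate 1 of testis, 40.2% of all genes). The KO count was 1 without KO replicate 2 of testis (0.287% of all genes). It was also 1 without KO replicate 2 or 3 of round spermatids (0.1% and 0.23%). Without any 1 WT library or round spermatid Het library it was below 4, and the share of all genes called was below 2.36%. It stayed at 4 without the Het library of testis (2.62%). The KO call held for Majin in 10 of the 13, for Ccna1 in 4, for Sycp1 in 3 and for Syce1 in 2. The same WT and KO libraries enter all of these comparisons.

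**Figure D5:**
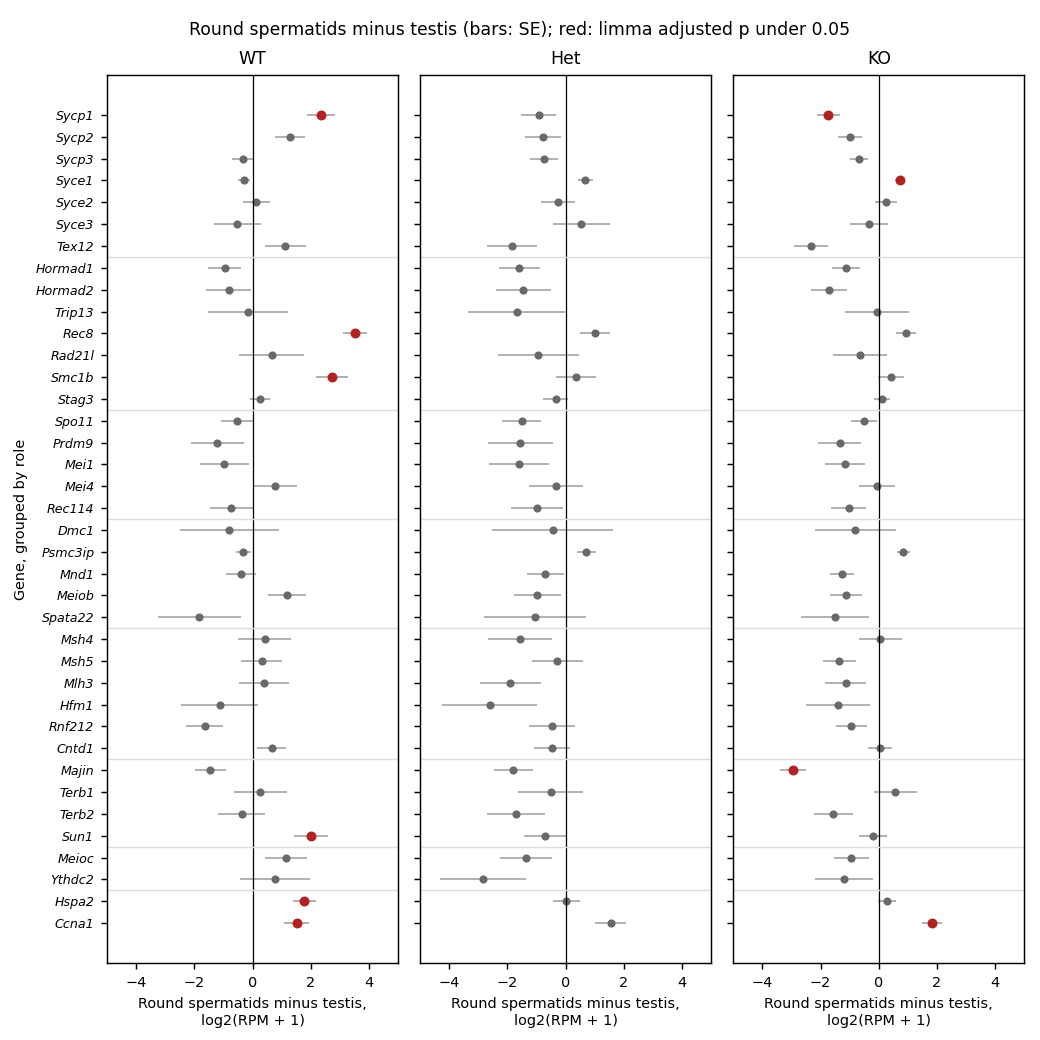
Round spermatids minus whole testis for the 38 genes on the log2(RPM + 1) scale, in WT (2 and 2 libraries), Het (2 and 1) and KO (3 and 3). Points are limma estimates from the fit of all 13 libraries with SE bars, and red points passed an adjusted p under 0.05: 6 genes in WT, all to the right of 0, none in Het and 4 in KO.

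Whether the KO effect differed between the cell types was tested directly. KO minus WT in round spermatids less KO minus WT in testis was -4.09 for Sycp1 (SE 0.62, limma adjusted p = 0.0174) and -2.60 for Rec8 (SE 0.54, adjusted p = 0.0363). In this fit 2 of 38 members passed, where 2.13% of all genes did (1.84% lower). The WT testis levels given above were 14.9 and 20.0 RPM for Sycp1 and 4.01 and 11.4 RPM for Rec8. The Het testis library lay beside the KO libraries, at 221 and 35.8 RPM. For Sycp1, KO replicates 2 and 3 minus Het were +0.40 in testis and -0.08 in round spermatids. For Rec8 these values were +0.36 and +0.22. KO replicate 1 minus WT was +3.61 in testis and -1.14 in round spermatids for Sycp1, and +2.18 and -0.31 for Rec8. The members' median was -0.50, against -0.48 for all genes, with 10 positive and 28 negative (33.2% of all genes positive), and it was +0.33 with 20 positive when libraries were centred on their medians. Neither gene passed then (limma adjusted p = 0.125 and 0.231) or with quantile normalization (adjusted p = 0.0663 and 0.148). The Sycp1 call held in 9 of the 13 fits that left out 1 library and was lost without WT replicate 1 of testis, either WT replicate of round spermatids or KO replicate 3 of round spermatids (adjusted p up to 0.130). The Rec8 call held in 3 of the 13, without WT replicate 2, the Het library or KO replicate 1 of testis, and was lost in the other 10 (adjusted p up to 0.179). Without KO replicate 1 of testis 14 members passed, and 31.1% of all genes did.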

How the data were processed

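RNA was measured in 13 libraries of whole testis and sorted round spermatids. The authors deposited 1 table of log2 RPM (reads-per-million) per gene and library. Per the submitters' processing notes, FastQC 0.11.8, Trim Galore 0.6.6, HISAT2 2.1.0 and genome build mm10 were used; which program and annotation gave the counts is not given in the sources used here. From the spacing of low values, 99.797% to 99.997% of values were whole reads within 0.01 read, with 0.9 read standing for none. Values were turned back to RPM with such genes at 0. The limit for a gene with no read, 3 reads, is 0.143 to 0.407 RPM by library and reflects counting error alone, since the reads have no molecular identifiers. No 2 libraries of a group agreed within sampling noise (chi-square per degree of freedom at least 10.1).

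Genes reaching 1 RPM in 2 or more libraries of the fit entered the test, on log2(RPM + 1), with limma 3.58.1 (lmFit and eBayes with trend, R 4.3.3), with two-sided p-values adjusted by Benjamini-Hochberg over all genes at 0.05; all 38 members passed this filter in each fit. KO was compared with WT, and with WT and Het together, in a fit per cell type. Round spermatids against testis, and the difference of KO effects, came from a fit of all libraries. The fits per cell type were tested on simulated counts that held no library sets, so that test does not bear on the split of libraries seen here. Lengths and overlaps came from GENCODE M21, where 99.15% of matched symbols had the table's coordinates. The members, the lists and the library sets were chosen with earlier results of these data known. Levels are given for all members; differences with errors for up to 3 members of each of 8 roles with the smallest unadjusted p, and up to 5 genes of each further list. The further list of recombination genes had 28 names, of which 27 were found. Alternatives were a pseudocount of 0.1 RPM, no filter, a minimum mean of 5 RPM, centred or quantile-normalized libraries, voom, quality weights, a replicate block, the library set as covariate, exonic length correction (loess span 0.5), all 13 libraries in one fit and leaving out each library.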

Additional observations from a re-analysis of the deposited data

Results flagged for a closer look

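By a direct test on log2(RPM + 1) values that were not rescaled, KO minus WT differed between cell types for Sycp1 and Rec8. The Het testis library lay beside the KO libraries, at 221 RPM for Sycp1 and 35.8 RPM for Rec8. Both WT libraries of each cell type lay in the library set that held KO replicate 1. For Sycp1 the KO minus WT difference in round spermatids less that in testis was -4.09 on the log2(RPM + 1) scale, and for Rec8 it was -2.60 (limma adjusted p = 0.0174 and 0.0363). Both calls were lost with centred libraries (limma adjusted p = 0.125 and 0.231) and with quantile normalization (adjusted p = 0.0663 and 0.148). Leaving out 1 library kept the call in 9 of 13 fits for Sycp1 and in 3 of 13 for Rec8.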

How the results depend on the processing

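Counts are members called of 38, with the percentage of all genes called in parentheses after a setting's count. In KO minus WT, testis, in place of 0, they were 33 with quality weights (67.5%), 19 with the library set as a covariate (37.7%), 14 in one fit of all 13 libraries (20.7%) and 0 to 32 without 1 library (65.2% at 32). In KO minus WT, round spermatids, in place of 0, they were 22 with weights (31.6%) and 0 to 18 without 1 library (30.8% at 18). Against WT and Het together, in place of 0, weights gave 32 in testis (70.5%), and leaving out 1 library gave 0 in both. Round spermatids minus testis gave in WT, in place of 6, 13 with weights (31%), 12 with the set (24.5%) and 1 to 12 without 1 library (29.8% at 12). In Het, in place of 0, it gave 16 (31.2%), 3 (7.34%) and 0 to 8 (14.1% at 8). In KO, in place of 4, it gave 26 (51.4%), 16 (20.9%) and 0 to 27 (40.2% at 27), and 2 each with a pseudocount of 0.1 RPM (1.26%) or no filter (1.44%). The difference of KO effects gave, in place of 2, 14 with weights (34.6%), 11 with the set (13.8%), 4 at a mean of at least 5 RPM (7.18%), 0 with centred (0%) and 0 with quantile-normalized libraries (0.00498%), and 0 to 14 without 1 library (31.1% at 14). The labels do not say that a number marks a shared animal, and the numbers were not taken to pair the samples, since WT testis and round spermatid libraries of one number correlated at -0.023, while KO ones did at 0.283 to 0.504. With the replicate block the counts were 2 in KO minus WT, testis (0.819%), and 6 in the difference of KO effects (2.94%). The cause of these changes was not tested.

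Some directions turned. The members' median turned in round spermatids minus testis, WT, with centring (-0.16), quantile normalization (-0.094) and without 1 library (-0.11 to 0.31, the former without WT replicate 2 of round spermatids), and in the difference of KO effects with centring (0.33). With the set it turned in KO minus WT (-0.0014 in testis, -0.058 in round spermatids) and against WT and Het in round spermatids (-0.059). That last median also turned with length correction (-9e-04) and ran from -0.17 to 0.39 without 1 library, turning without WT replicate 1 (-0.063), WT replicate 2 (-0.042) or KO replicate 2 (-0.17) of round spermatids. In KO minus WT, testis, Spo11 was at -0.15 with centring and, with the set, Spo11 at -0.41, Ythdc2 at -0.034 and Dmc1 at -1.46. Ccna1 was at 0.095 (voom), 0.43 (weights), 0.21 (length), and -0.43 to 0.45 without 1 library (0.41 without WT replicate 2, 0.45 without KO replicate 1), and Rec114 at 0.072 (length). In KO minus WT, round spermatids, the set gave Meioc -0.094, Ythdc2 -0.44, Psmc3ip 0.020, Dmc1 -0.36, Sycp2 -0.39 and Sun1 -0.22, and Ythdc2 ran from -0.11 (without KO replicate 2) to 1.11 without 1 library. Mei4 in WT round spermatids minus testis ran from -0.10 (without WT replicate 2 of round spermatids) to 1.66 without 1 library. None of these members was called except Dmc1 with the set. There KO minus WT rests on KO replicate 1 alone, a testis library with no Dmc1 read. Depth limits Rad21l, Prdm9, Spata22 and Mei4, which had few reads in some groups. It also limits Dmc1 and Trip13, which had no read in KO replicate 1 of testis.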
